A study of Mus musculus with 6 samples.

Results

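The expression of 8 transcription factors of the nephron, the filtering unit of the kidney with its tubule, was followed in whole mouse kidney after ischaemia/reperfusion injury. The genes were Sox9, Sox4, Sox11 and Klf6, which are known from regenerating or stressed tubule, the cell-cycle factor Foxm1, the lineage factors Pax2 and Pax8, and Hnf4a, a factor of the mature proximal tubule. They were chosen by name, with earlier results of these data known. Every probe that the array design assigns to 1 of these symbols was taken. This gave 20 probes of the 41174 on each array and 8 of the 27343 genes. After injury Sox9 signal was 12.3-fold higher, Klf6 2.48-fold and Sox4 2.37-fold higher, Pax8 was 1.37-fold higher and Hnf4a 1.57-fold lower, as estimated over 3 injured and 3 sham arrays. For the brightest probe of each of these 5 genes the signals of injured and sham kidneys did not overlap. Those of a second Pax8 probe, also well above background on all 6 arrays, did. Of all genes, 9.69% lay wholly higher and 13.1% wholly lower on the injured arrays. None of the 8 passed limma's test after Benjamini-Hochberg adjustment over all 19608 genes tested, at a threshold of 0.05, which 0.0% of all genes passed (2408 had an unadjusted p under 0.05). Foxm1 was highest on 1 sham array, and Pax2 and Sox11 lay close to background. Sox9 was weak on the sham arrays, and its difference of 3.62 log2 units was 2.23 with another background correction.

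Kidney RNA was hybridised to 6 single-colour arrays, and a signal is given here as log2 intensity relative to the 75th percentile of its array. The groups were wild type after sham operation (2 arrays), wild type after ischaemia/reperfusion injury (2 arrays), Gpr97 deficiency after sham operation (1 array) and Gpr97 deficiency after the same injury (1 array), all labelled male. In this injury the blood flow of the kidney is stopped and then restored, and the series asks how the adhesion receptor Gpr97, whose current symbol is Adgrg3, bears on the damage. The sources used here give no age, strain, Gpr97 allele, cell type of the loss, ischaemia length or collection time. Whether a group's arrays represent separate animals is also unstated, so the p-values reflect the spread among these samples alone, part of which may be technical. In whole tissue fewer cells of a type and less RNA per cell cannot be told apart.

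The labels were checked first. The brighter Adgrg3 probe read 0.02 to 1.18 on the 4 wild-type arrays, and -5.38 and -5.75 on the Gpr97-deficient sham and injured arrays. Wild-type injured array 1 went against its label: the brightest probe of Xist, the RNA of the inactive X chromosome, read 4.05 there and at most -5.45 on the other 5 arrays, while the Y-linked genes Ddx3y, Kdm5d, Eif2s3y and Uty were not well above background on it, so the injury differences of the members and some further values are also given without that array. Of the probes, 62.9% to 71.0% were well above background on each array, and no spot was saturated. All 27 measured proximal tubule markers were well above background on all 6 arrays. Slide 1 carried wild-type sham array 1 with wild-type injured array 2, and slide 2 all remaining arrays, which leaves 3 injured and sham pairs that share genotype and slide. The median injury difference over all genes was -0.055 log2 units, and 0.19 after another background correction (normexp), so a small difference is best read against that of all genes.

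During development, nephrons form from progenitor cells that express Pax2, Pax8 and Sox family genes, and the finished proximal tubule is held in its differentiated state by nuclear receptors such as Hnf4a and other factors. After ischaemia, surviving tubule cells are known to lose differentiated functions, to re-express developmental factors and to divide. Sox9 marks the cells that regenerate the tubule, and Foxm1 drives the genes of mitosis.

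Sox9, the factor of regenerating tubule cells, differed more after injury than the other 5 genes measured on all arrays. Its brightest probe (chr11:112647008-112647067, plus strand, in mm9) read -4.21 on wild-type sham array 1, -4.72 on wild-type sham array 2 and -3.40 on the Gpr97-deficient sham array. After injury it read -2.05 and 0.41 on wild-type arrays 1 and 2 and 0.18 on the Gpr97-deficient array. All 3 injured arrays lay above all 3 sham arrays, with the wild-type injured array 1 lowest among them. The sham signals were weak: on wild-type sham array 1 the lowest signal of any probe well above background was -4.48. The mean was -0.49 ± 1.36 (SD, n = 3) after injury and -4.11 ± 0.67 (SD, n = 3) after sham operation. In the model with genotype and surgery the injury difference was 3.62 log2 units (SE 0.66, 95% interval 1.92 to 5.32, limma adjusted p = 0.262), which ranked 27th from the top of the 19608 genes. Without wild-type injured array 1 it was 4.32 (adjusted p = 0.159).

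Within slides Sox9 was 24.6-fold higher in the wild-type pair of slide 1, 6.37-fold in the wild-type pair of slide 2 and 11.9-fold in the Gpr97-deficient pair. Each pair was at least 2-fold higher, a size and direction that 1.16% of all genes showed in all 3 pairs. A second Sox9 probe, spotted 10 times on each array (chr11:112648809-112648868 in mm9), read -3.89, -5.22 and -4.09 on wild-type sham arrays 1 and 2 and the Gpr97-deficient sham array. It read -3.27, -0.57 and -0.94 on wild-type injured arrays 1 and 2 and the Gpr97-deficient injured array. Its groups did not overlap either, and its difference was 2.81 log2 units (SE 0.78, limma adjusted p = 0.336). The third probe was well above background only on the Gpr97-deficient injured array, at -5.39. The Sox9 injury difference was 2.23 log2 units with normexp and 2.44 with the mean of the probes.

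Sox4 and Sox11 belong to the SoxC group, whose factors act in progenitor cells and in the shaping of the nephron. Sox4 is measured by 1 probe (chr13:29044066-29044125, minus strand, in mm9). It read -2.13 and -1.88 on wild-type sham arrays 1 and 2 and -1.26 on the Gpr97-deficient sham array, against -0.71, -0.51 and -0.31 on wild-type injured arrays 1 and 2 and the Gpr97-deficient injured array. The groups did not overlap, and the Gpr97-deficient array was the highest of each. The injury difference was 1.24 log2 units (SE 0.19, 95% interval 0.76 to 1.73, limma adjusted p = 0.260), and 1.26 without wild-type injured array 1. By slide and genotype Sox4 was 3.08-fold, 2.24-fold and 1.93-fold higher in the wild-type pairs of slides 1 and 2 and the Gpr97-deficient pair.

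Sox11, its close relative, has 6 probes, of which 5 were well above background on no array. The sixth read -5.21, -6.60 and -5.73 on wild-type sham arrays 1 and 2 and the Gpr97-deficient sham array, and -4.96, -6.52 and -5.07 on wild-type injured arrays 1 and 2 and the Gpr97-deficient injured array. It was well above background only on wild-type injured array 1 and the Gpr97-deficient injured array, so it entered the test through injured arrays alone. The groups overlapped and no fold change is given. A difference of Sox11 like that of Sox4 was not detectable with these probes.

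Klf6, a zinc-finger factor induced early in injured tubule and known to repress the breakdown of branched-chain amino acids there, was well above background on every array. Its brightest probe (chr13:5869371-5869430, plus strand, in mm9) read 2.37 and 2.55 on wild-type sham arrays 1 and 2 and 2.81 on the Gpr97-deficient sham array. After injury it read 3.09 and 4.06 on wild-type arrays 1 and 2 and 4.51 on the Gpr97-deficient array. The groups did not overlap, and wild-type injured array 1 was again the lowest injured array. The injury difference was 1.31 log2 units (SE 0.32, 95% interval 0.50 to 2.12, limma adjusted p = 0.295), and 1.65 without wild-type injured array 1. The second probe (chr13:5866706-5866765 in mm9) gave 1.36 (SE 0.26), also without overlap. The slide pairs were 3.24-fold and 1.45-fold higher in wild type, on slides 1 and 2, and 3.26-fold higher in Gpr97 deficiency.

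**Figure D1:**
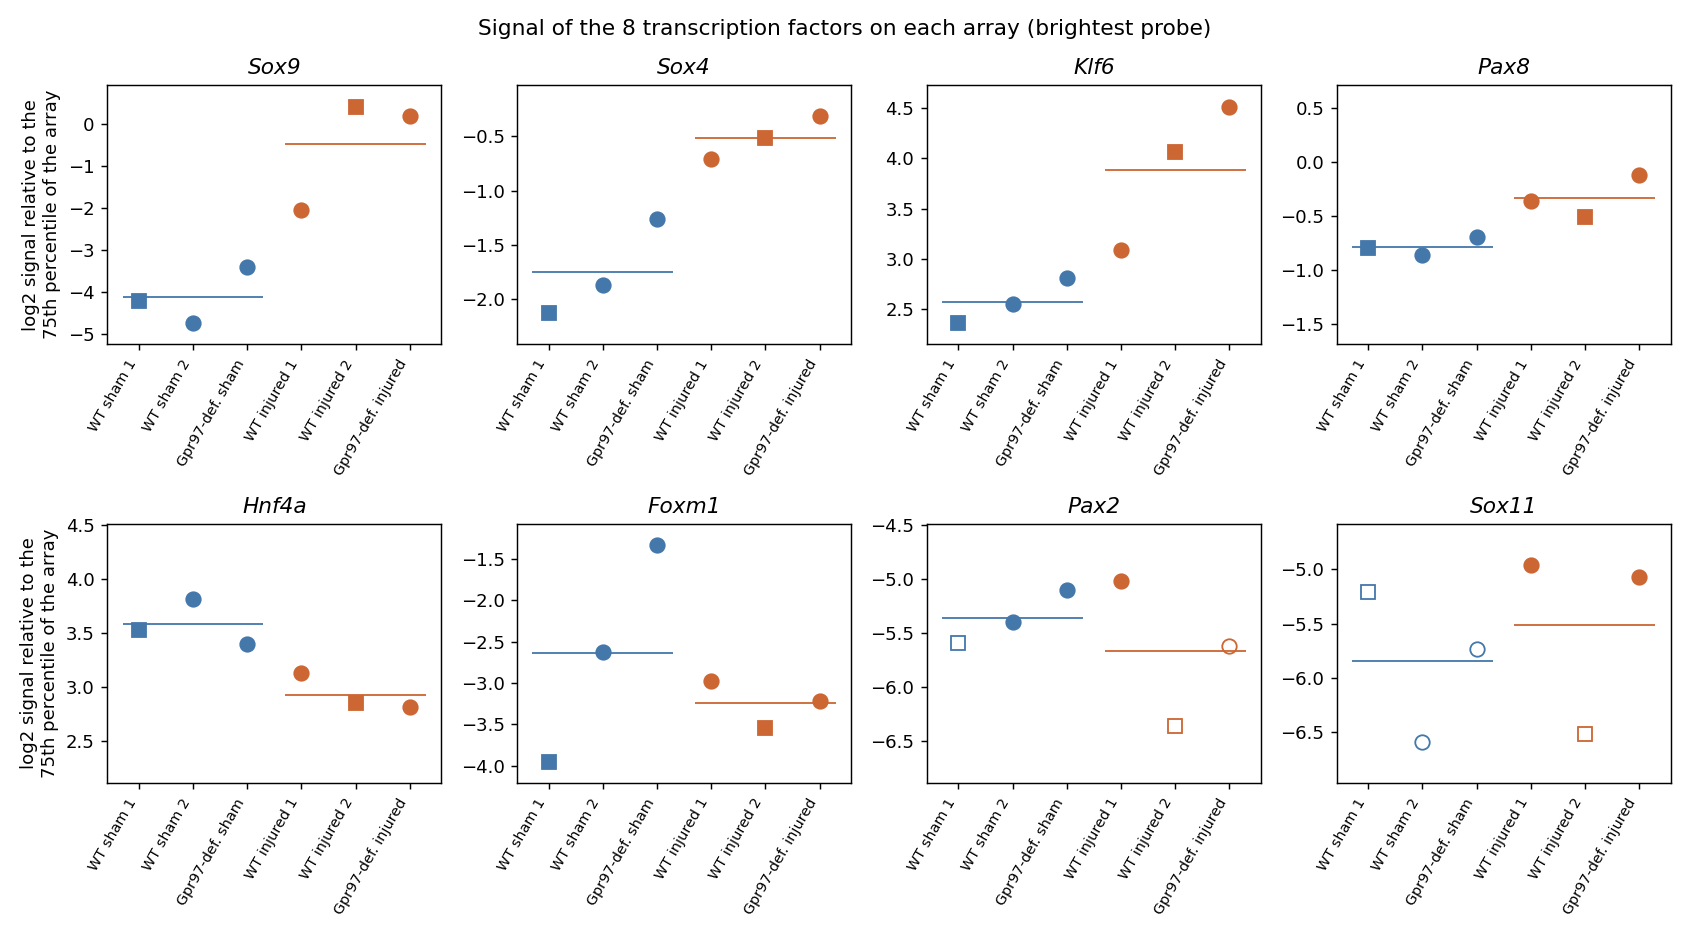
Signal of the brightest probe of each of the 8 genes on each array, in log2 units from the array's 75th percentile. Blue points are sham and orange points injured arrays, squares are slide 1 and circles slide 2, open symbols were not well above background, and lines are means of 3 arrays. Every panel spans its own range of levels. Sox9, Sox4, Klf6 and Pax8 separate upwards after injury and Hnf4a downwards, while Foxm1, Pax2 and Sox11 overlap.

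Sox4 and Klf6 differed after injury by a like amount, 1.24 and 1.31 log2 units, and the sequences before their start sites are printed because they share CCAAT boxes, the element bound by the factor NF-Y. The pair was chosen after the matches were seen. The 250 bases upstream of each start were taken from RefSeq (GRCm38.p6) and searched on both strands for AP-1 (TGANTCA), CRE (TGACGTCA), the GC box (GGGCGG), the CCAAT box (CCAAT), the TATA box (TATAAA), the E-box of Myc (CACGTG), an HNF4 site (CAAAGTCCA) and the mitotic CHR element (TTTGAA). No motif letters are contained in another of the 8 motifs. Capitals mark every match, in either orientation, so ATTGG is a CCAAT box on the opposite strand. The Sox4 sequence lies at chr13:28953700-28953949 on the minus strand, and the Klf6 sequence at chr13:5861239-5861488 on the plus strand.

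Sox4: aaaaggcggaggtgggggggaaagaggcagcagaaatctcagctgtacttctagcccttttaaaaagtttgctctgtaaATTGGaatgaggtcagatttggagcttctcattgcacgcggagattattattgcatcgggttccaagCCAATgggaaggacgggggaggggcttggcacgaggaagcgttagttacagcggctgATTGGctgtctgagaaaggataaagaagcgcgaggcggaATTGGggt
Klf6: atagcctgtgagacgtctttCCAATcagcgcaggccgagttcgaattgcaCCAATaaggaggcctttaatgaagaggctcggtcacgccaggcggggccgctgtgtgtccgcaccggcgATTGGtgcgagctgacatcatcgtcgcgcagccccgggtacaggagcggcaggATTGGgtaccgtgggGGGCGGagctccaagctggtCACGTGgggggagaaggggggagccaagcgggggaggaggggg

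Each of these sequences held 4 CCAAT matches. At least 1 was present in 33.8% of the 32851 promoters of the same length, and at least 4 in 0.84% of them, shares given as a description of the table and not as a test. The windows of Pax8, which was also higher after injury, and of Sox11 held 1 match each, as did both Hnf4a windows, and the 3 Pax2 windows held 0. Klf6 also held 1 GC box, found in 32.7% of all promoters, and 1 CACGTG, found in 6.02%. AP-1 and CRE letters, present in 6.75% and 1.55% of all promoters, were in neither window. These are matches of letters, not measured binding, and 6 of the 8 genes had an entry in the table. Sox9 and Foxm1 had none, so their promoters were not searched.

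Pax2 and Pax8 are paired-box factors that specify the nephric lineage, and Pax8 stays on in adult tubule epithelium. The brighter Pax8 probe (chr2:24276785-24276844, minus strand, in mm9) read -0.80 and -0.86 on wild-type sham arrays 1 and 2 and -0.69 on the Gpr97-deficient sham array. It read -0.36 and -0.51 on wild-type injured arrays 1 and 2 and -0.12 on the Gpr97-deficient injured array. The injured arrays were all higher, by a small margin between the lowest of them and the highest sham array. The injury difference was 0.45 log2 units (SE 0.15, 95% interval 0.066 to 0.84, limma adjusted p = 0.366), and 0.43 without wild-type injured array 1. The second Pax8 probe (chr2:24328201-24328260 in mm9) overlapped between the groups and gave 0.37 (SE 0.22), so the separation of Pax8 rests on 1 of its 2 probes.

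The single Pax2 probe, spotted 10 times (chr19:44835375-44835433 in mm9), read -5.60, -5.40 and -5.10 on wild-type sham arrays 1 and 2 and the Gpr97-deficient sham array. It read -5.02, -6.36 and -5.62 on wild-type injured arrays 1 and 2 and the Gpr97-deficient injured array. Only wild-type sham array 2, wild-type injured array 1 and the Gpr97-deficient sham array were well above background, and the groups overlapped, so no fold change is given.

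Hnf4a, the nuclear receptor that maintains the proximal tubule, was lower after injury on each of its 3 probes. The brightest (chr2:163398074-163398133, plus strand, in mm9) read 3.52 and 3.81 on wild-type sham arrays 1 and 2 and 3.40 on the Gpr97-deficient sham array. After injury it read 3.13 and 2.85 on wild-type arrays 1 and 2 and 2.81 on the Gpr97-deficient array. The groups did not overlap. The difference was -0.65 log2 units (SE 0.17, 95% interval -1.10 to -0.20, limma adjusted p = 0.324), and -0.72 without wild-type injured array 1. The other probes gave -0.75 (SE 0.24) and -0.71 (SE 0.24), also with no overlap. The difference was alike in the 3 slide pairs, at -0.67 and -0.68 log2 units in wild type, on slides 1 and 2, and -0.59 in Gpr97 deficiency. As in Hnf4a, 26.4% of all genes were lower in all 3 pairs, and 18.7% were higher in all 3, as were Sox9, Sox4, Klf6 and Pax8.

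Foxm1, the forkhead factor of the mitotic gene programme, varied more among sham kidneys than between sham and injured ones. Its brighter probe (chr6:128324783-128324842, plus strand, in mm9) read -3.95 and -2.62 on wild-type sham arrays 1 and 2 and -1.34 on the Gpr97-deficient sham array. It read -2.98 and -3.55 on wild-type injured arrays 1 and 2 and -3.21 on the Gpr97-deficient injured array. The highest and the lowest values of all 6 arrays were both sham arrays. The injury difference was -0.61 log2 units (SE 0.56, 95% interval -2.05 to 0.83, limma adjusted p = 0.704), and -0.95 without wild-type injured array 1. It was 0.023 in wild type alone (SE 0.55, limma adjusted p = 0.998), as it was when the Gpr97-deficient sham array was left out. The second Foxm1 probe was well above background on no array.

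Of 24 genes of mitosis listed with Foxm1, 23 were tested, 16 of them well above background on all 6 arrays. Their median on the Gpr97-deficient sham array was 2.41 log2 units above the wild-type sham mean, and 22 of the 23 were higher there. On the other arrays the median lay between -0.68, on the Gpr97-deficient injured array, and 0.52, on wild-type sham array 2. The median injury difference was therefore -0.98 over all arrays but 0.18 in wild type, and -0.054 with the normexp background correction. Cenpe, a kinesin of the centromere, was 1.76 log2 units lower after injury (SE 0.48, limma adjusted p = 0.327) and lower in each slide pair, by 1.42, 1.71 and 2.15. Top2a, the topoisomerase of dividing cells, was 1.71 lower (SE 0.57), but 0.14 lower in the wild-type pair of slide 1. Cenpf, another centromere protein, was well above background on 1 injured and 2 sham arrays.

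**Figure D2:**
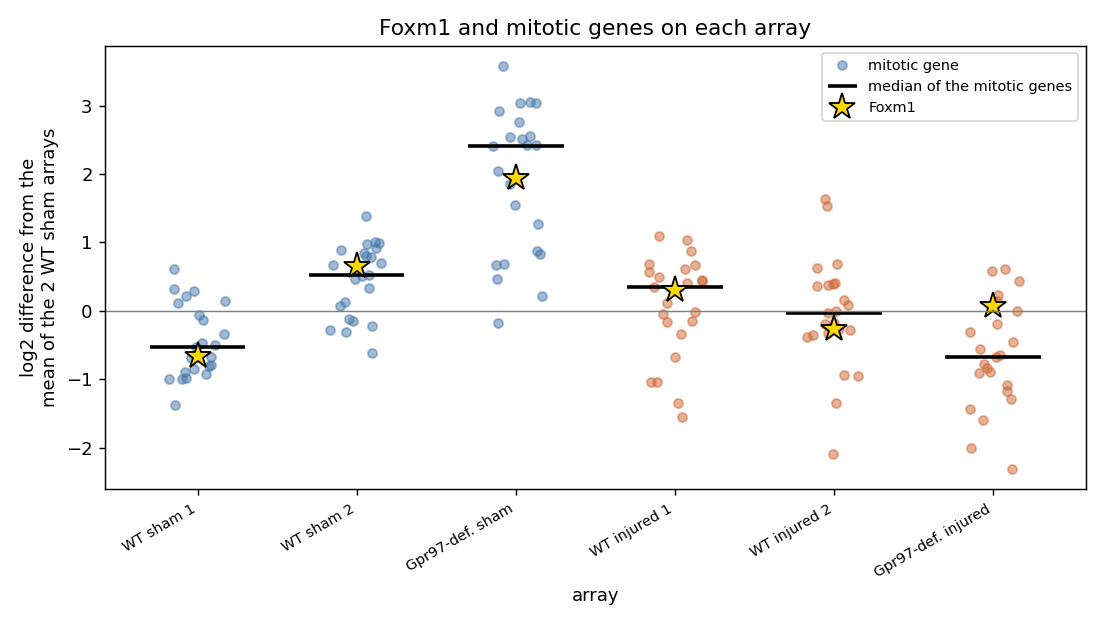
Each point is 1 of 23 mitotic genes on 1 array, as the log2 difference from the mean of the 2 wild-type sham arrays; the bar is their median and the star is Foxm1. The Gpr97-deficient sham array stands above the others, with a median of 2.41 and Foxm1 at 1.95, while the 3 injured arrays lie between -0.68 and 0.35.

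The same Gpr97-deficient sham array carried the highest signals of several blood cell genes. Of 11 neutrophil markers tested, 10 were above the wild-type sham mean on it, with a median of 3.69 log2 units, and the granule genes Ngp (-1.23), Camp (-1.62) and Ltf (-0.44) were highest there. Only 4 of the 11 neutrophil markers were well above background on all 6 arrays, so that median includes genes near background on some arrays. The log2 of the summed neutrophil signal ranged from 1.36 to 5.87 on sham arrays and from 3.61 to 4.90 on injured arrays. Of 7 red-cell markers 5 were above the wild-type sham mean on it, with a median of 0.29, and 5 also on wild-type injured array 1, with a median of 0.37. Hba-a1 (6.20) and Alas2 (1.64), picked after their values were seen, were highest on the Gpr97-deficient sham array. Neutrophil Mpo read -2.87 on that array, within the -2.59 to -3.45 of the others. The part of such cells in the Foxm1 values was not tested.

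The question of the design is whether Gpr97 deficiency alters this response, and the 2 Gpr97-deficient arrays allow a wide interval at best. Over both surgeries Sox4 was 0.52 log2 units higher in Gpr97 deficiency (SE 0.20, 95% interval 0.0065 to 1.03, limma adjusted p = 0.993). It is the 1 of the 8 genes past an unadjusted p of 0.05 in this comparison, which 3.26% of all genes passed. The Sox4 value was 0.050 with the normexp background correction and 0.30 without the Gpr97-deficient sham array. Sox9 was 1.04 higher (interval -0.76 to 2.84), Klf6 0.64 higher (-0.21 to 1.5), Foxm1 0.997 higher (-0.53 to 2.53), Pax8 0.23 higher (-0.19 to 0.64) and Hnf4a 0.22 lower (-0.70 to 0.25), all with a limma adjusted p of 0.993. Single arrays moved these values. Leaving out wild-type injured array 1 gave 0.51 for Sox9 and 0.39 for Klf6, and leaving out wild-type injured array 2 gave 1.57 for Sox9. Klf6 was 0.35 without the Gpr97-deficient injured array. Foxm1 was 0.049 without the Gpr97-deficient sham array, 1.95 without the Gpr97-deficient injured array and 0.58 without wild-type sham array 1. Pax8 was 0.13 without the Gpr97-deficient injured array. Slide 1 holds no Gpr97-deficient array, and with slide as a block the values were 1.78 for Sox9 and 0.52 for Foxm1, against 0.57 and 0.014 with normexp.

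No difference in the injury change between genotypes was called by limma's interaction test, in which 1.48% of all genes had an unadjusted p under 0.05 and none of the 8 did. The Gpr97-deficient pair gave 3.58 log2 units for Sox9 against 3.65 (SE 0.91) in wild type, a difference of -0.069 with an interval of -4.38 to 4.24, and -1.30 without wild-type injured array 1. For Klf6 it gave 1.70 against 1.12 (SE 0.41), a difference of 0.59 (-1.37 to 2.55), which became 0.10 if wild-type injured array 1 was left out and 1.07 if wild-type injured array 2 was. For Sox4 it gave 0.95 against 1.39 (SE 0.25), a difference of -0.45 (-1.65 to 0.75). For Hnf4a it gave -0.59 against -0.68 (SE 0.26), a difference of 0.089 (-1.17 to 1.35), and 0.23 if wild-type injured array 1 was left out. Foxm1 differed most, by -1.90 (-4.52 to 0.72), with the Gpr97-deficient sham array at the top of its range. Every adjusted p was 0.9999, and intervals of this width leave both equal and several-fold different responses possible.

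**Figure D3:**
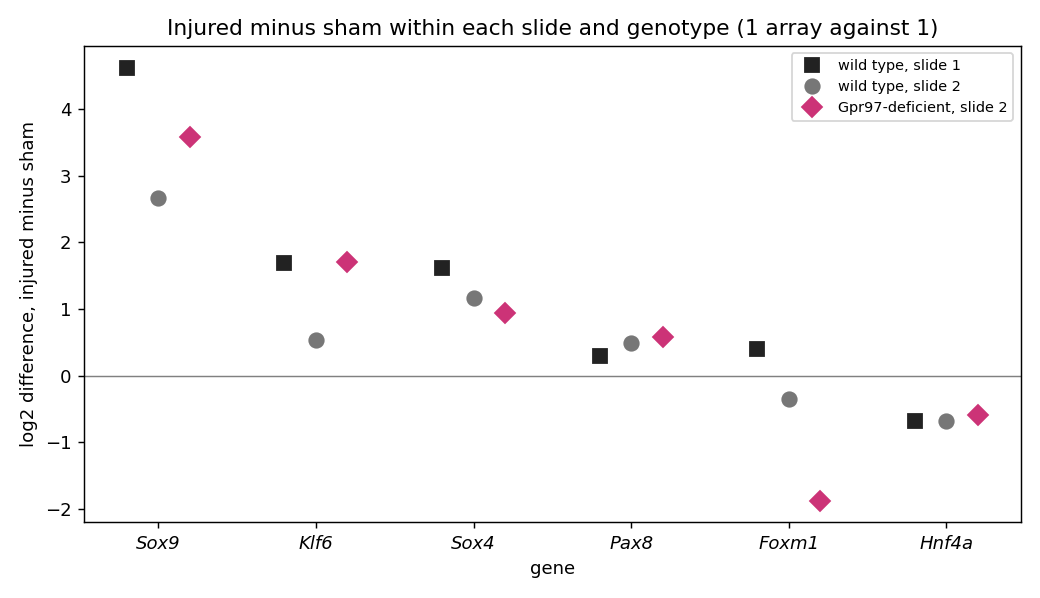
Injured minus sham log2 signal within the 3 pairs of arrays that share slide and genotype, for the members measured on all 6 arrays. Sox9, Sox4, Klf6 and Pax8 are above 0 in each pair and Hnf4a below 0 in each, while Foxm1 is 0.40 in the wild-type pair of slide 1 and -1.87 in the Gpr97-deficient pair.

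The members were chosen with earlier results of these data known, so the shares of all genes given beside them describe and are no test. Set against all genes, 4 of the 6 members measured on all 6 arrays lay higher on every injured than on every sham array. Of all genes 9.69% did so. Another 1 of the 6 members lay lower, as 13.1% of all genes did. The same 5 genes had an unadjusted limma p under 0.05 in the additive model, as had 12.3% of all genes in either direction (5.56% higher and 6.72% lower). Sox9 and Sox4 passed the unadjusted threshold in wild type alone, as did 6.4% of all genes. An exact permutation test of 3 against 3 arrays cannot go below p = 0.1. Sox9, Klf6 and Sox4 ranked 27th, 413th and 454th from the top by size, and Hnf4a ranked 1811th from the bottom.

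**Figure D4:**
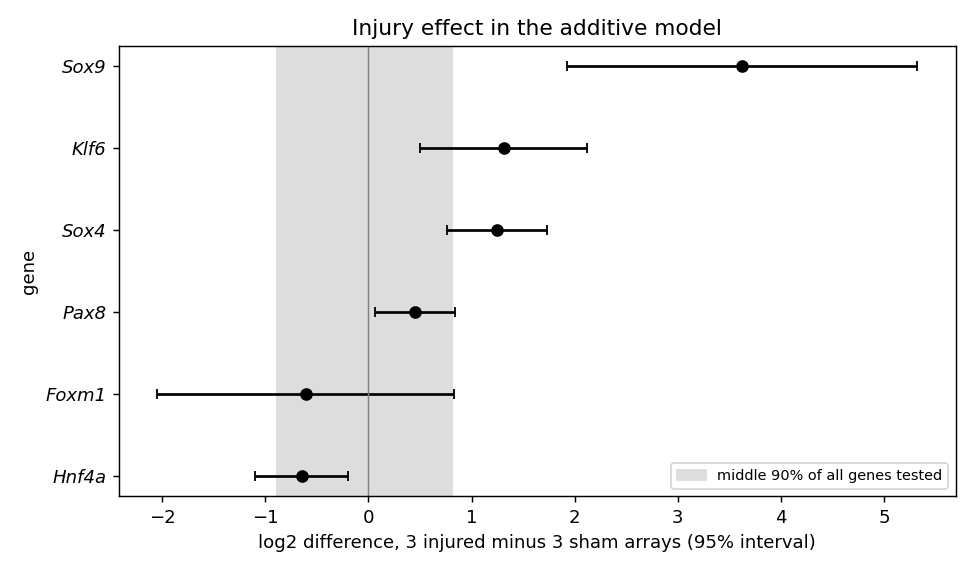
Injury difference of 6 members in the model with genotype and surgery, in log2 units with 95% intervals; the grey band is the middle 90% of all genes tested, from -0.88 to 0.81. Sox9, Klf6 and Sox4 lie beyond the band, and Pax8, Foxm1 and Hnf4a inside it.

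The other members of the 3 gene families differed in both directions. Of 15 other Klf genes tested 10 were higher and 5 lower after injury, with a median of 0.18 log2 units against -0.055 for all genes, but 0.19 for both with normexp and 0.043 for the list with the mean of the probes. Of these 3 each way had an unadjusted limma p under 0.05. Among all genes 5.56% were higher and 6.72% lower at that threshold. Klf5, an epithelial factor, was 1.55 higher (SE 0.50), whereas Klf15, a factor of the differentiated podocyte and of metabolism, was 1.39 lower (SE 0.30) and Klf12 1.06 lower (SE 0.23), with limma adjusted p values of 0.361, 0.269 and 0.269. Of 12 other Sox genes 4 were higher and 8 lower (median -0.19, and 0.30 with normexp), and none passed an unadjusted p of 0.05. Sox7 (-0.43), Sox21 (-0.39) and Sox15 (0.30) had the largest differences of them. Only 8 of the 12 Sox genes and 13 of the 15 Klf genes were well above background on all 6 arrays. Of 7 other Pax genes 3 could be tested. Pax6, the eye and islet factor, was well above background on all 3 injured arrays and on no sham array, with a signal at least 2.92-fold higher; it entered the test through the injured arrays alone, so no test of it is given. Pax9 and Pax7 were above background on some arrays only.

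Other factors of nephron segments were read against all genes, of which 11126 of 19608 were lower after injury. Of 12 other proximal tubule factors 10 were lower, with a median of -0.28. At an unadjusted limma p under 0.05 was 1, and 6.72% of all genes were lower at that threshold. Maf was lower by 0.77 (SE 0.30), Ppargc1a, the coactivator of mitochondrial genes, by 0.63 (SE 0.42) and Esrra, its nuclear receptor partner, by 0.58 (SE 0.24). Of 10 factors of the loop of Henle and distal tubule 9 were lower (median -0.21, but -0.049 with normexp and -0.046 without wild-type sham array 1), with Esrrb at -0.93, Irx1 at -0.86 and Sim1 at -0.42. Of 12 collecting duct factors 7 were lower, a share like that of all genes (median -0.072, and 0.29 with normexp), and Elf3, an epithelial Ets factor, was 1.25 higher (SE 0.25), with Emx1 at -0.58 and Elf5 at 0.37. Of 16 other nephron progenitor factors 7 were higher and 9 lower (median -0.03, and 0.26 with normexp), with none past an unadjusted p of 0.05: Lhx1 read -0.72, Hoxa11 0.65 and Cited1 0.47. Of these 16 factors 13 were well above background on all 6 arrays.

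Stress-induced factors lay on the side of Sox9 and Klf6. Of 26 factors linked to injury 21 were higher (median 0.27), and 8 of these had an unadjusted limma p under 0.05. Among all 19608 genes 8482 were higher, and 5.56% were higher at that threshold. Myc was 2.33 higher (SE 0.47), Atf3 2.17 (SE 0.43) and Cebpd 2.07 (SE 0.26). Of 15 immediate early genes 14 were higher, with a median of 1.09. At an unadjusted limma p under 0.05 were 9, against the same 5.56% of all genes. Egr2 was 3.33 higher (SE 0.84), Egr1 2.23 (SE 1.09), and Fosl1, well above background on 2 of 3 sham arrays, 3.71 (SE 0.77). Of the 15 immediate early genes 13 were well above background on all 6 arrays.

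**Figure D5:**
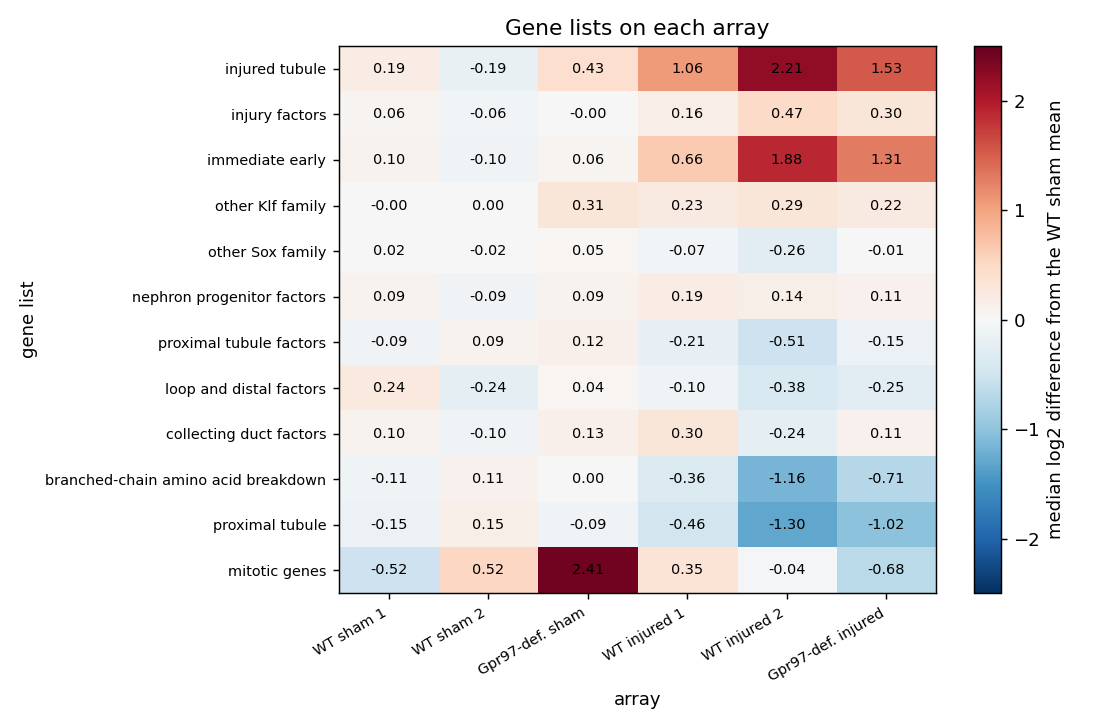
Median log2 difference of each gene list from the wild-type sham mean on each array, printed in each cell and coloured from blue (lower) to red (higher). Injured tubule and immediate early genes are highest on the injured arrays, most on wild-type injured array 2 and least on array 1, and branched-chain amino acid and proximal tubule genes mirror them. The mitotic genes stand out on the Gpr97-deficient sham array.

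Genes of the processes that Klf6 and Hnf4a are known to govern were read beside them. All 23 genes of branched-chain amino acid breakdown were lower after injury, with a median of -0.69 log2 units. Of these 13 had an unadjusted limma p under 0.05, and 6.72% of all genes were lower at that threshold. In 16 of the 23 all injured arrays lay below all sham arrays, as in 13.1% of all genes. Ivd was 1.26 lower (SE 0.34), Aldh6a1 0.94 lower (SE 0.23) and Pcca 0.93 lower (SE 0.30). In the slide pairs the median was -0.97 and -0.51 in wild type, on slides 1 and 2, and -0.70 in Gpr97 deficiency. A fall of this size was not particular to this list. The median was -0.82 for proximal tubule markers and -0.67 for thick limb and distal markers. The part of Klf6 or Hnf4a in these differences was not tested.

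Of 27 proximal tubule markers 26 were lower (median -0.82). Of these 13 had an unadjusted limma p under 0.05, and 6.72% of all genes were lower at that threshold. Slc34a3, a phosphate transporter, was 2.58 lower (SE 0.76), Ass1, of arginine synthesis, 2.17 lower (SE 0.37) and Gatm, of creatine synthesis, 2.11 lower (SE 0.54). Hnf4a, at -0.65, lay above the median of these markers. Thick limb and distal markers had a median of -0.67 (12 of 13 lower), collecting duct markers -0.23 (9 of 12 lower) and podocyte markers 0.03 (5 of 10 lower). The 24 genes of injured tubule were higher in 22 cases (median 1.59), where 8482 of all 19608 genes were higher. Of the 24, 21 were well above background on all 6 arrays. Beside these, 10 of 12 fibroblast and matrix markers were higher (median 0.91), and the medians were 1.46 for neutrophil, 0.16 for macrophage and monocyte, 0.13 for endothelial, -0.78 for T and NK cell, -0.27 for B cell, -0.15 for red-cell and 0.19 for adipocyte markers. Only 4 of 11 neutrophil, 2 of 13 T and NK cell and 3 of 6 B cell markers were well above background on all 6 arrays. The same held for 5 of 7 red-cell and 4 of 6 adipocyte markers, so these medians include signals near background. The neutrophil markers were split, with 7 higher and 4 lower. The red-cell and collecting duct lists share the gene with the lowest difference of each (-1.19), so these lists are not independent. With normexp the T and NK cell, B cell and red-cell medians were 0.36, 0.42 and 0.37. Without wild-type injured array 1 the median was 0.73 for neutrophil, 0.021 for macrophage and monocyte, -0.62 for collecting duct, -1.07 for thick limb and distal and -1.11 for red-cell markers. What share of the differences in Sox9, Klf6 and Hnf4a came with such cells was not tested.

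The genes with the profiles most like each member over the 6 arrays were sought among 12840 genes, as the smallest root mean square distance of mean-centred log2 signals. For Sox9, whose own profile had a root mean square of 2.01, they were Cbr3, a carbonyl reductase (0.458), Cdkn1a, the cell-cycle inhibitor p21 (0.467), and Tnfrsf12a, the receptor of the cytokine TWEAK (0.513). For Klf6 (0.790) they were the leucine-zipper factor Cebpb (0.102), the small heat shock protein Hspb6 (0.158) and the sulphate transporter Slc13a1 (0.196). For Foxm1 (0.829) they were the mitotic kinase Plk1 (0.233), Mns1 (0.235) and the histone gene H2ac23 (0.269). For Hnf4a (0.360) they were the histone genes H2bu1-ps (0.039), H2bc12 (0.040) and H2bc14 (0.054), near-identical copies whose probes may share signal. These likenesses rest on 6 arrays that share slides and describe them only.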

How the data were processed

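Intensity values come from the deposited scanner files of 6 Cy3 arrays, read with Agilent Feature Extraction 10.7.1.1 (slide 1) and 10.7.3.1 (slide 2), under protocol GE1_107_Sep09 and with mm9 probe positions, per the file headers. Flags for background, saturation and outliers are other columns of the same deposited files. The authors' deposited series values are log2 values (array medians 6.07 to 6.09, Spearman's rho with the scanner signals above 0.999) and served as an alternative; the sources used here do not give their normalization, and the submitters' processing notes name limma.

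Processed signals were put on the log2 scale and the 75th percentile of their array was subtracted. Control spots (43379 of 45018 spots were kept) and outlier spots were left out, and spots of a probe were averaged. Probes were named by accession (27668), symbol (5589) or synonym (471) in RefSeq, and otherwise by the file (7446). The brightest probe stood for a gene, and testing took the 19608 genes that 2 or more of the 6 arrays showed well above background, 7 of them with a missing value, which limma drops. Limma 3.58.1 (R 4.3.3) fitted surgery and genotype, or the 4 group means, to all arrays, where the single Gpr97-deficient arrays are assumed to vary like the wild-type ones. Tests are two-sided, and the fits were tested on simulated data. A gene below background in a group is given as "at least N-fold" against the lowest signals well above background. Alternatives were quantile scaling, normexp (offset 50), the deposited values, looser and stricter filters, the mean of the probes, slide as a block, a trended robust prior and leaving out each array.

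The members and lists were chosen with earlier results of these data known. Named genes are the members, the 3 genes of a list with the largest injury difference, the 3 nearest profiles of Sox9, Hnf4a, Foxm1 and Klf6, and the genes that check the labels; Ngp, Camp, Ltf, Mpo, Hba-a1 and Alas2 were added after their values were seen, and of the marker lists only the proximal tubule genes are named. Some genes of the lists are not reported here. No test was made over a list.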

Additional observations from a re-analysis of the deposited data

How the results depend on the processing

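Over the alternatives the injury difference kept its direction for Sox9 (2.23 to 4.32), Sox4 (1.08 to 1.39), Klf6 (1.09 to 1.65), Pax8 (0.39 to 0.51) and Hnf4a (-0.84 to -0.54), and no member passed the adjusted threshold (lowest limma adjusted p 0.120). That of Foxm1 turned to 0.071 with normexp and to 0.023 without either Gpr97-deficient array, and ranged from -1.17 to 0.023 over arrays left out. In wild type, Foxm1 was -0.64 without sham array 1 and -0.26 without injured array 1, and ranged from -0.64 to 0.68. The genotype difference of Hnf4a was 0.017 with normexp. The genotype difference in the injury response turned for Sox9 to 0.61 with normexp and 0.65 with the mean of the probes, and with arrays left out ranged from -1.30 to 1.16 (0.19 without sham array 2 and 1.16 without injured array 2, both wild type). For Hnf4a it ranged from -0.054 to 0.23, with -0.054 without wild-type sham array 2 and -0.049 without wild-type injured array 2. The causes were not tested. Of 324 member values 312 kept direction and side, but many of these could not change direction. The looser and stricter filters and the trended prior leave a member's estimate as it was. Slide as a block does so for the injury and interaction differences. Leaving out a Gpr97-deficient array does so for the injury difference in wild type. Of 335 list medians 297 moved by less than the spread between replicates. With limma, 0 genes passed in each of the 4 comparisons (2408, 1255, 639 and 291 at an unadjusted p under 0.05), but for injury 1 (Sprr2f) passed with quantile scaling, deposited values or slide as a block and 3 (Col3a1, Mmp7, Sprr2f) with the trended prior, and for genotype 1 (Adgrg3) with that prior. The interaction could not be fitted without either Gpr97-deficient array. No paired analysis was possible because the labels number no replicates across groups; slide, from the file headers, served as a block and gave the pairs within slides. Probes near background limit Sox11 and Pax2, weak sham signals limit the size given for Sox9, and 6 arrays limit every interval.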
